A study of Mus musculus with 5 samples.

Results

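The step from 8 h to 1 day of retinoic acid (RA) was followed in mouse embryoid bodies on their way from embryonic stem (ES) cells to motor neurons, by comparing 1 array taken after 8 h (differentiation Day2) with 1 array taken after 1 day (Day3). Genes were kept when a probe was well above background on both arrays and reached a log2 signal of 8 on either of them, and a gene was called raised or lowered when its level differed 2-fold or more. Of 19889 genes with a probe, 11588 were kept. Of these, 1093 were raised, which is 9.43% of the kept genes, and 614 were lowered, which is 5.30%. In all, 1707 genes changed. A gene that was not well above background after 1 day was not kept and so could not be called lowered, which limits the count of falls in every gene group below.

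The series holds 5 Agilent one-colour arrays of wild-type, male cells: ES cells, embryoid bodies after 8 h, 1 day and 2 days of RA, and motor neuron cultures after 5 days of RA. All differentiated samples received RA together with an activator of the Sonic hedgehog (Shh) pathway, named Shh in the labels and the smoothened agonist SAG in the study's methods. The labels describe this treatment as running from day 2 to day 5 of the culture, whereas the last sample is described as having 5 days of RA. Each time point was measured once, so no spread between samples, p-value or test can be given, and all statements below are sizes on single arrays. An embryoid body is an aggregate that holds cells of more than one state, so fewer cells of a type and less RNA per cell cannot be told apart here.

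RA, made from vitamin A, enters the nucleus and acts through receptor pairs of the RAR and RXR families, which sit on repeated sites in DNA and switch on nearby genes. In ES cell aggregates it directs cells away from pluripotency and towards neural tissue, and it activates the Hox genes from the 3′ end of each cluster, which gives the tissue a hindbrain and spinal cord character. Shh signalling then assigns ventral identities, among them the progenitors of motor neurons, while FGF signalling sustains the state of the epiblast and of the tail end of the embryo.

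The array of 8 h stood apart from the others before any gene was considered. On it, 86.7% of the mouse probes were marked well above background, against 57.5% on the array of 1 day and 59.2% to 65.7% on the remaining 3. Probes for olfactory and vomeronasal receptors, which neural precursors hardly use, were well above background for 67.8% of 1441 probes after 8 h and for 8.95% to 14.2% on the other arrays. Among probes well above background, the median SD between repeated spots of a probe was 0.10 log2 units after 8 h and 0.055 after 1 day. Combined, they give a spot-to-spot error of 0.12 for a change on the log2 scale. This error is from within arrays and leaves out differences between arrays and between samples, so it does not measure how sure a 2-fold change is. The comparison cannot be made without this array, so the levels on the ES array and on the arrays of 2 and 5 days are given for the main genes, and the part of the array of 8 h in any result was not tested. Levels are quantile-normalized log2 signals, and they are compared only within a gene, because probes differ in brightness.

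Hoxd4 and Pax6, which mark the RA-treated neural precursor, both rose. Hoxd4, a Hox gene of the hindbrain and cervical cord, had log2 levels of 5.84 in ES cells, 6.16 after 8 h, 11.03 after 1 day, 13.27 after 2 days and 10.53 after 5 days. It was low in ES cells and at 8 h and high on the 3 later arrays, and its change from 8 h to 1 day was 4.87 on the log2 scale, or 29.2-fold. Pax6, a homeobox gene of neural progenitors, had levels of 6.77, 7.98, 10.21, 10.28 and 5.17 over the same 5 arrays. It was high on the arrays of 1 and 2 days only, and its change was 2.23, or 4.68-fold.

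**Figure D1:**
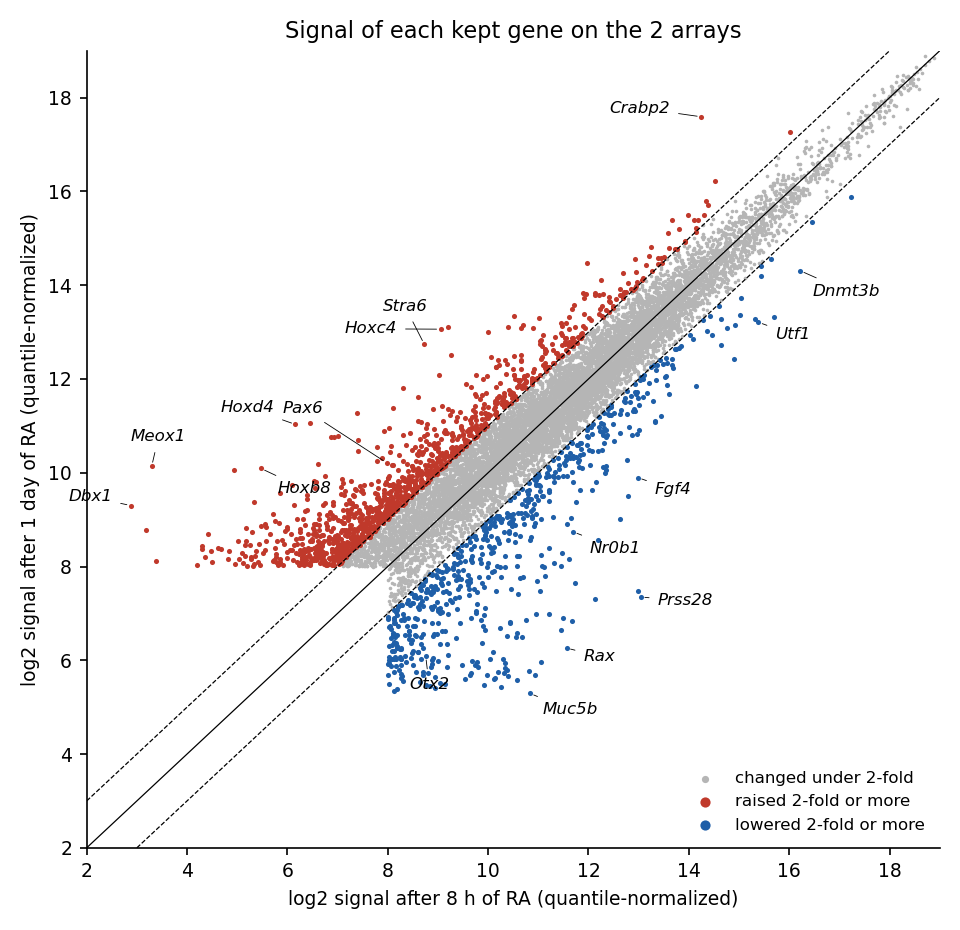
Quantile-normalized log2 signal of the 11588 kept genes after 8 h of RA (horizontal axis) and after 1 day (vertical axis), 1 array each; the solid line marks equal levels and the dashed lines a 2-fold difference. Raised genes (1093, red) reach furthest from the line at low signal after 8 h, whereas lowered genes (614, blue) hold both bright genes such as Dnmt3b and a band of genes near the floor after 1 day.

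Changes were most frequent among dim genes. Of the 3163 kept genes whose brighter array lay between 8 and 10, 20.0% were raised and 8.85% lowered. Of the 1469 genes at 14 or above, 2.52% were raised and 1.63% lowered. Among the 7415 genes at 10 or above on both arrays, 231 were raised and 152 were lowered. The median change of all kept genes was 0.07, the median rise 1.39 and the median fall -1.58. At 4-fold or more, 221 genes were raised and 201 lowered, and at 16-fold or more the counts were 14 and 29. Just inside the limit lay Scamp2 with a change of 1.0007 and Zbed5 with -1.0007, and just outside it Plekhg4 with 0.9997 and Mphosph10 with -0.9977. The balance depended on the scaling of the arrays: a shift to the 75th percentile of each array gave 814 raised and 658 lowered genes, cyclic loess 735 and 697, and values without normalization, in which the median of all kept genes was -0.67, gave 175 and 3044.

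The 15 largest rises were of genes that lay below 8 on the ES array, and 13 of them also lay below 8 after 8 h. Meox1, a homeobox gene known from the somite, had levels of 4.98 in ES cells, 3.30 after 8 h, 10.14 after 1 day, 9.39 after 2 days and 7.34 after 5 days. Dbx1, a homeobox gene of ventral interneuron progenitors, had levels of 2.94, 2.88, 9.30, 11.39 and 4.44. Both were near the floor on the first 2 arrays and stood out after 1 and 2 days, and their changes were 6.84 and 6.42. Rai2, an RA-induced gene, changed by 5.598 and Ripply3, a corepressor of T-box factors, by 5.11. Zbtb16, a zinc finger repressor of progenitor cells, changed by 4.61, with levels of 5.35, 6.45, 11.06, 11.27 and 10.502. The group also held the secreted proteases Plau (4.73) and Plat (3.90), the collagen chain Col6a2 (4.28), the zinc finger gene Zscan5b (4.13), the lectin-like gene Clec2l (4.07), the forkhead gene Foxc1 (4.04), and Hoxd4, Hoxb8, Hoxc4 and Stra6, which are described below. After 2 days 12 of the 15 were above 8, and after 5 days 8 were.

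The sizes of these rises rest on very low values after 8 h. With normexp background correction, which compresses dim signals, the change of Meox1 was 3.97, that of Dbx1 3.16 and that of Rai2 2.66. All 3 remained past 2-fold.

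The 15 largest falls had another course. Olfactory and vomeronasal receptor genes and uncharacterised genes were left out of both rankings. The falls were those of Prss28, Muc5b, Krtap4-1, Rax, Vdr, Cacna1d, Celf3, Matn4, Gdf5, Cd52, Tex101, Adamts16, Cbln2, D17H6S53E and Spint5, with changes from -5.69 (Prss28) to -4.51 (Spint5). After 8 h they had levels between 10.1 and 13.0, and after 1 day between 5.29 and 7.47. In ES cells they lay between 3.48 and 6.99 and after 2 days between 4.25 and 7.83, so each of the 15 was above 8 after 8 h and below 8 on the arrays before and after it. Only Adamts16, Cbln2, Celf3 and Gdf5 were above 8 again after 5 days. In the motor neuron culture of 5 days, Celf3 was at 9.53 and Cbln2 at 10.08. Prss28 is a protease of the uterus, Muc5b a mucin of the airway and Krtap4-1 a hair keratin-associated protein. Rax is an eye-field homeobox factor and Cd52 a lymphocyte surface protein. They are picked examples, and the 15 genes were not sorted by tissue. Rax, as an example, had levels of 5.80 in ES cells, 11.56 after 8 h, 6.26 after 1 day, 6.47 after 2 days and 4.64 after 5 days. Gdf5 was the only one with another kept probe, and that probe changed by -2.74.

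**Figure D2:**
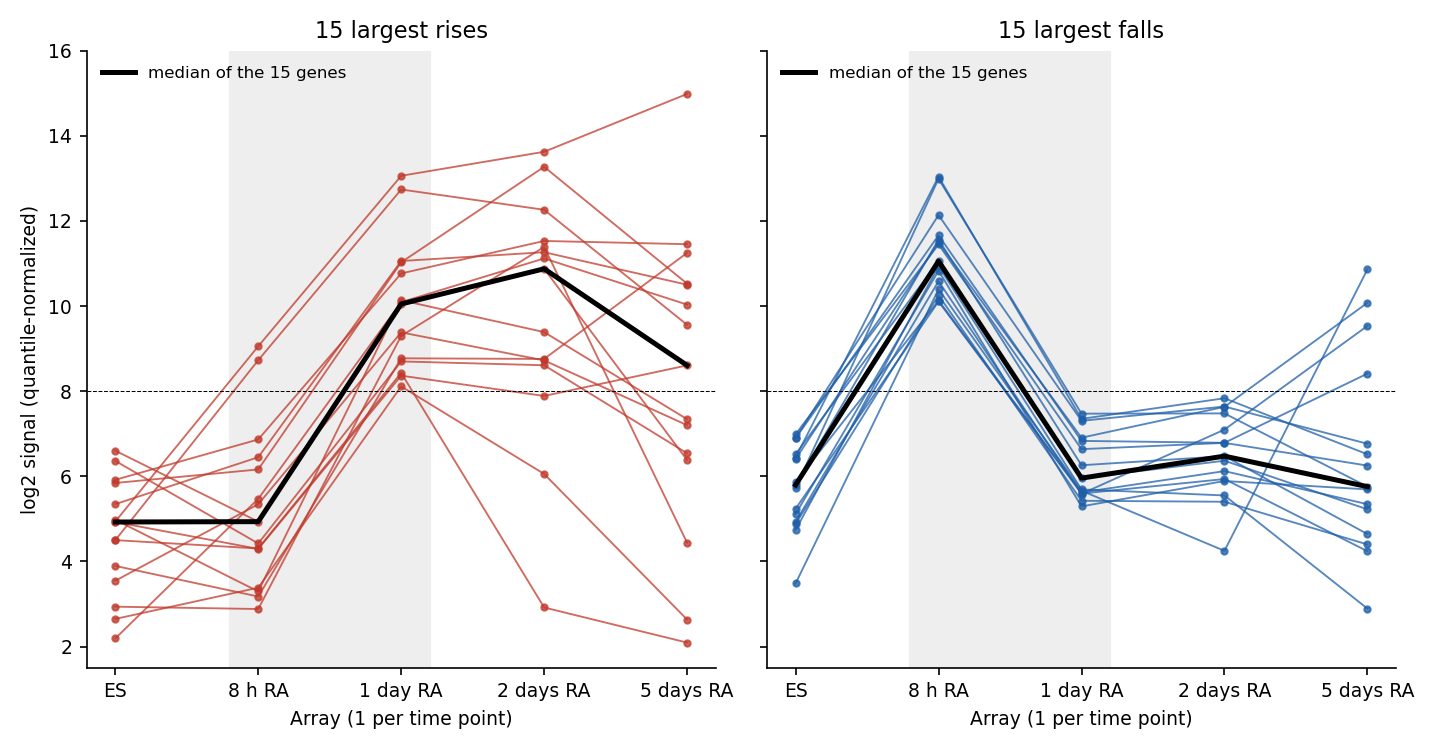
Quantile-normalized log2 signal (vertical axis) on the 5 arrays, 1 per time point, of the 15 genes with the largest rise (left, red) and the 15 with the largest fall (right, blue) from 8 h to 1 day of RA (grey band); thin lines are genes, the black line is their median and the dashed line is the minimum of 8. The rises are still high after 2 days for 12 genes, whereas all 15 falls start from a high value after 8 h that the ES array does not share.

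The arrays of ES cells and of 2 days of RA took no part in choosing the genes, apart from the shared normalization, and give a view of the same genes. Of the 1093 raised genes, 93.2% were higher after 2 days than in ES cells, 66.9% were at least 2-fold higher and 1.19% at least 2-fold lower, with a median difference of 1.40. Over all kept genes 14.7% were at least 2-fold higher and 11.4% at least 2-fold lower, with a median of 0.05. The raised genes thus stood higher than ES cells on an array that was not used to find them.

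Of the 614 lowered genes, 74.3% were lower after 2 days than in ES cells, 55.4% at least 2-fold lower and 8.47% at least 2-fold higher, with a median difference of -1.26. For the 396 with a level of 8 or more in ES cells, the median level was 10.88 in ES cells, 10.93 after 8 h, 9.40 after 1 day and 8.99 after 2 days, and 76.8% were at least 2-fold lower after 2 days than in ES cells. For the 218 with a level below 8 in ES cells, the medians were 6.57, 9.04, 6.73 and 6.71. Of these genes, 16.5% were at least 2-fold lower after 2 days than in ES cells and 22.0% at least 2-fold higher. Splitting by the ES level itself pushes these shares apart, so the difference between the groups is no finding. The high median of the 218 genes after 8 h also follows from their selection, since a lowered gene with an ES level under 8 had to reach 8 on that array. With the further condition that a gene reach 8 on the ES array, added after the data had been seen, 641 genes were raised and 396 lowered.

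**Figure D3:**
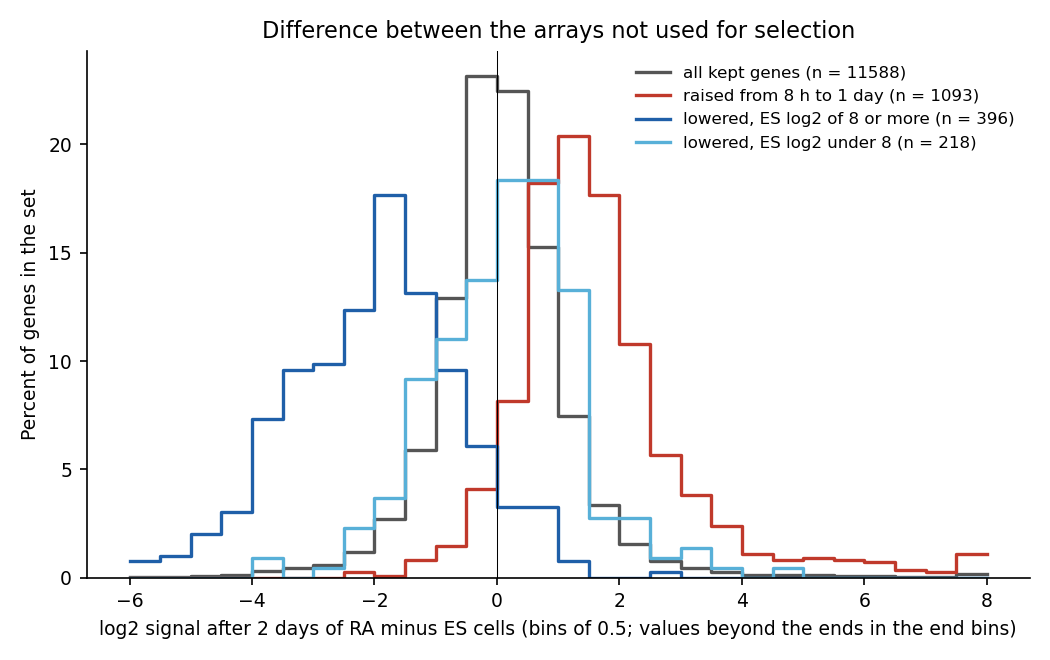
Percent of genes of each set (vertical axis) by their log2 level after 2 days of RA minus that in ES cells (horizontal axis, bins of 0.5), for all kept genes, raised genes, and lowered genes split at an ES level of 8. Raised genes centre on 1.40 and lowered genes of higher ES level lie below 0, whereas lowered genes of low ES level centre on 0.24, close to all kept genes at 0.05; the split by ES level itself moves the latter sets apart.

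Further probes of the same genes gave a technical check. Among raised genes, 151 further kept probes of 138 genes were available, of which 104 were raised and 7 lowered. Among lowered genes, 33 of 63 further kept probes of 57 genes were lowered and 1 raised. Over all kept genes, 344 of 2978 further probes were raised and 119 lowered. When the minimum of 8 was dropped for the further probes and only the detection flag was required, 35 of 101 further probes of lowered genes with an ES level of 8 or more were lowered and 7 raised. For lowered genes with a lower ES level, 3 of 34 were lowered and 11 raised. Over all kept genes this filter gave 4206 further probes, of which 934 were raised and 161 lowered.

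**Figure D4:**
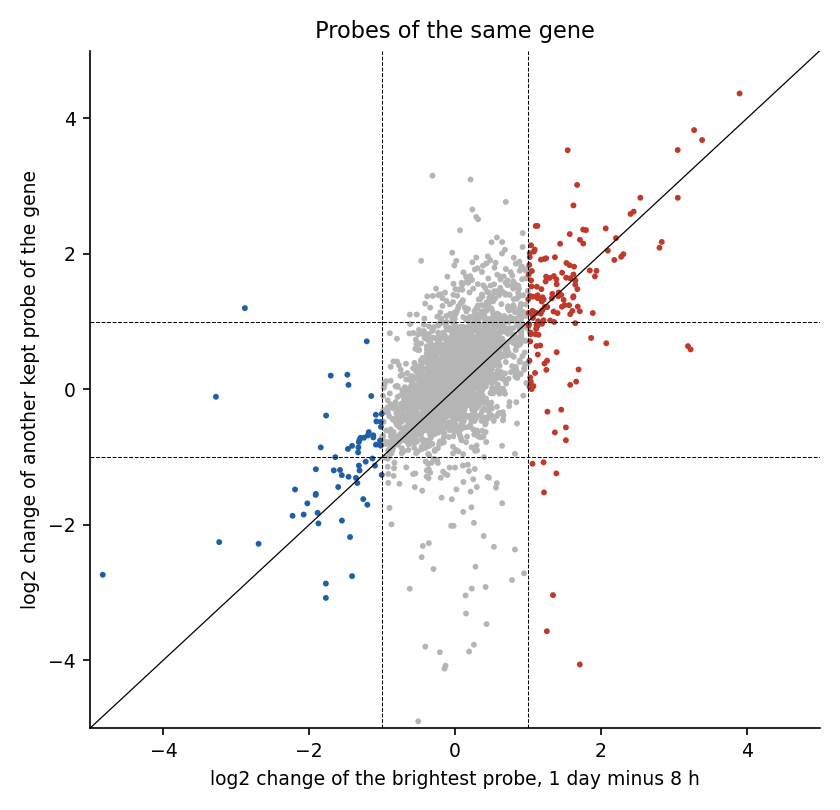
Log2 change from 8 h to 1 day of RA of the brightest probe of a gene (horizontal axis) and of another kept probe of that gene (vertical axis), with 2978 further probes of 2534 genes; dashed lines mark 2-fold, the solid line equality, and red and blue the raised and lowered genes. Of the further probes, 104 of 151 for raised genes lie above the upper dashed line and 33 of 63 for lowered genes below the lower one.

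Several genes that carry or remove RA rose. Of 24 genes of RA handling and signalling, 19 were kept, 5 were raised and 0 lowered, with a median change of 0.53. Crabp2, which delivers RA to the receptors in the nucleus, had levels of 12.71 in ES cells, 14.25 after 8 h, 17.59 after 1 day, 16.99 after 2 days and 15.84 after 5 days. It climbed over the first 3 arrays, and its change was 3.34, or 10.1-fold. Stra6, the membrane receptor that takes up retinol, had levels of 4.50, 8.73, 12.74, 12.26 and 9.56, with a change of 4.01. Crabp1, the other cellular RA-binding protein, changed by 1.27.

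Of the Cyp26 enzymes, which break down RA, Cyp26a1 and Cyp26b1 rose, and Cyp26c1 was not well above background after 1 day and was not kept. Cyp26a1 had levels of 6.50 in ES cells, 13.66 after 8 h, 15.40 after 1 day, 15.22 after 2 days and 8.09 after 5 days, and Cyp26b1 had 6.15, 9.37, 11.18, 14.71 and 10.62. On the log2 scale, most of the distance between ES cells and 1 day was already covered at 8 h for Cyp26a1, whose further change was 1.74. For Cyp26b1 the change was 1.81. Dhrs3, which reduces retinal to retinol, changed by 0.94 and stayed under 2-fold.

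Of the 6 receptor genes, 5 were kept and 0 changed 2-fold by their brightest probes, with changes of -0.16 for Rara, 0.42 for Rarb, -0.69 for Rarg, -0.09 for Rxrb and 0.53 for Rxrg. Other kept probes changed by 1.05 for Rarb and -2.33 for Rxrg, so the array gives no direction for Rxrg. Rarb, itself a target of RA, had levels of 6.82, 12.09, 12.51, 12.77 and 12.42, and was thus high from 8 h on. The 5 coactivators and corepressors lay under 2-fold too. In an overlapping list of 18 genes known to respond to RA, 17 were kept, 6 were raised and 0 lowered, with a median of 0.67. Stra6 (4.01), Crabp2 (3.34) and Cyp26a1 (1.74) are on this list too. Nr2f1, an orphan nuclear receptor, had levels of 8.00, 9.20, 13.10, 14.94 and 15.95 and a change of 3.90, and its other probe changed by 4.37. Tshz1, a zinc finger factor of the trunk, changed by 2.82 and Meis1 by 2.44. Hoxb1 (0.49), Stra8 (0.67) and Meis2 (0.37) stayed under 2-fold.

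RA receptor pairs bind direct repeats of a short site, and a spacing of 5 bases is the classical arrangement. The promoters of RefSeq (GRCm38.p6, 250 bases before to 50 after the start) were searched on both strands for a pair of such sites in the same direction with 5 bases between them. The site was accepted as AGGTCA, which is its consensus form. The form AGTTCA, known from several retinoid target genes, was accepted in either place of the pair. The same held for GGGTCA in either place, and the remaining form allowed in the search was written GGTTCA. Such a pair was found in 4 of 9304 kept genes with a promoter (0.0430%), in 2 of 821 raised genes, in 1 of 476 lowered genes and in 31 of 27025 promoters overall (0.115%). All 4 are shown because they are the only matches among kept genes. Both sites of the pair are in capitals, and coordinates are those of GRCm38.p6, while the probes were designed against an older build.
Cyp26a1 (chr19:37697770-37697798, minus strand): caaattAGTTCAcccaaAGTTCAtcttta
Rarb (chr14:16575507-16575535, minus strand): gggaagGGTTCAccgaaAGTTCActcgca
Hbb-y (chr7:103853318-103853346, plus strand): ggagccAGGTCAtgggaGGGTCAgcaaaa
Blvrb (chr7:27452393-27452421, minus strand): tctatgAGTTCAaagccAGTTCAaaggtt
Their genes had changes of 1.74 for Cyp26a1, 0.42 for Rarb, 3.05 for the embryonic globin Hbb-y and -1.02 for the biliverdin reductase Blvrb, the last 2 of which were named after their values had been seen. With spacers of 2 bases or of 1 base the pairs occurred in 2 raised genes and 1 lowered gene each, against 9 and 26 of all kept genes (0.0967% and 0.279%). The Gli-type motif GACCACCCA occurred in 3 raised and 0 lowered genes, against 24 of all kept genes (0.258%). The matches are descriptions of sequence and not sites of binding. The median GC content of the promoters was 62% for raised, 58% for lowered and 61% for all kept genes.

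Of 39 Hox genes, which set position along the body axis, 18 were kept, 9 were raised and 0 lowered, with a median change of 0.96. The count of 0 holds for kept genes only, since 11 Hox genes were not well above background after 1 day, among them Hoxc10, with 9.10 after 8 h and 2.92 after 1 day. In the HoxA cluster 1 of 6 kept genes was raised, in HoxB 6 of 9, in HoxC 1 of 2 and in HoxD 1 of 1. Hoxb8, a gene of the trunk, had levels of 2.19 in ES cells, 5.47 after 8 h, 10.09 after 1 day, 11.12 after 2 days and 10.03 after 5 days. Hoxc4, a gene of the cervical cord, had levels of 4.94, 9.06, 13.06, 13.63 and 14.99. Both were low in ES cells, intermediate at 8 h and high from 1 day on, and their changes were 4.62 and 4.01.

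Along the HoxB cluster, from its 3′ to its 5′ end, the changes were 0.49 for Hoxb1, 0.52 for Hoxb2, 1.07 for Hoxb3, 0.84 for Hoxb4, 1.21 for Hoxb5, 2.71 for Hoxb6, 2.42 for Hoxb7, 4.62 for Hoxb8 and 1.49 for Hoxb9, the last of which was 0.94 after a shift to the 75th percentile. The genes at the 3′ end had risen from ES cells before 8 h, as for Hoxb1 with levels of 3.32 in ES cells and 11.25 after 8 h, and moved less afterwards. Hoxb6 had levels of 5.88, 10.39, 13.10, 13.81 and 14.37.

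In the HoxA cluster Hoxa4 alone was raised, with levels of 5.35, 7.31, 9.52, 11.15 and 10.54 and a change of 2.21. Hoxa5, the gene at the centre of the study, had levels of 2.09 in ES cells, 10.46 after 8 h, 11.18 after 1 day, 12.23 after 2 days and 13.33 after 5 days. Its level rose at every step, and its change of 0.72 from 8 h to 1 day was under 2-fold, as were those of Hoxa2 (0.70), Hoxa3 (0.65) and Hoxa7 (0.35). Hoxc5 was the only kept Hox gene with a lower level after 1 day, and its change of -0.93 stayed under 2-fold. Hoxd3 was not kept, because its probe was not well above background after 8 h, and it had levels of 8.70, 10.03 and 11.94 after 1, 2 and 5 days.

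Of the 9 TALE cofactors, which bind DNA together with Hox proteins, 3 were raised and 0 lowered. Meis1 changed by 2.44, Pknox2 by 2.41 and Meis3 by 1.62, and Meis1 had levels of 10.02, 10.70, 13.14, 13.77 and 15.16. Of the 20 genes of anterior-posterior position, 9 were kept, of which 1 was raised (Nr2f1) and 3 were lowered, all of the forebrain and midbrain. Otx2, a gene of the anterior epiblast and forebrain, had levels of 12.55 in ES cells, 8.76 after 8 h, 6.10 after 1 day, 5.39 after 2 days and 7.48 after 5 days, declining over the first 4 arrays with a change of -2.66. Pax2 changed by -3.01 and Rax by -5.30, and in contrast to Otx2 both lay below 8 in ES cells.

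**Figure D5:**
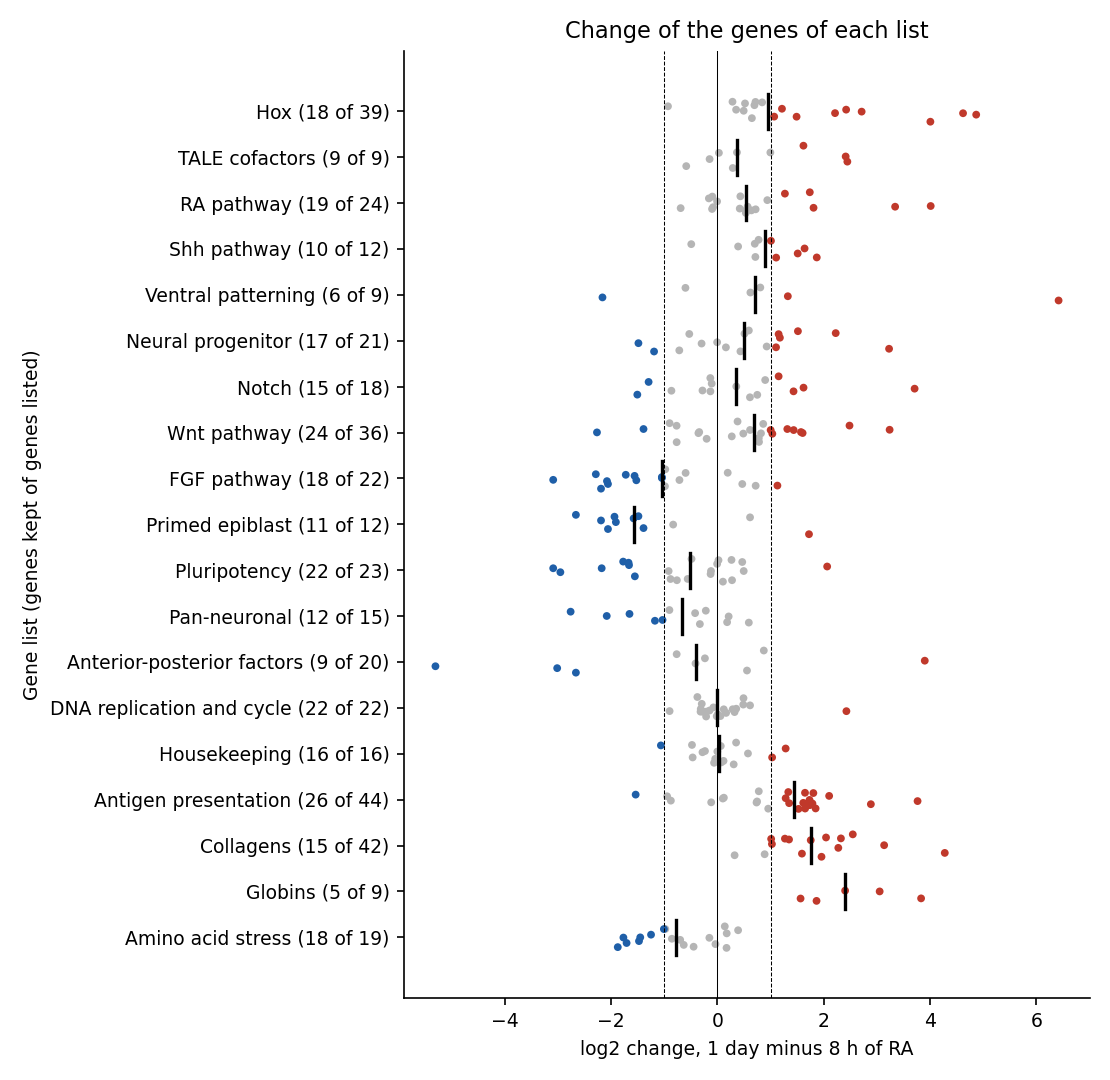
Log2 change from 8 h to 1 day of RA (horizontal axis) of the kept genes of 19 gene lists (rows, with the number kept of the number listed); points are genes, in red when raised and blue when lowered 2-fold, grey otherwise, and black bars are medians. Hox, RA and Shh genes lie mostly to the right of 0, FGF and primed epiblast genes mostly to the left, and housekeeping genes around it; the last 4 lists were chosen after values had been seen.

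Neural progenitor genes shifted in composition. Of 21 genes, 17 were kept, 6 were raised and 2 lowered, with a median of 0.51. Sox21, a factor of neural precursors, rose by 3.23, although its other kept probe changed by 0.59, and Pax6 rose as described. The adhesion molecules Ncam1 (1.51) and Cdh2 (1.18), the intermediate filament Nes (1.104) and the Notch effector Hes5 (1.15) rose less. The other kept probe of Cdh2 changed by 1.34, and a probe of Ncam1 that was under the minimum of 8 changed by 1.68. Zic2, a zinc finger factor of epiblast and early neural plate, fell (-1.48). The SoxB1 genes, which maintain neural precursors, stayed under 2-fold by their brightest probes, with Sox1 at 0.93, Sox2 at 0.00 and Sox3 at -0.72. The other kept probe of Sox1 changed by 2.31, so its mean over kept probes was past 2-fold (1.62).

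Genes of Shh reception rose, whereas its direct readout Gli1 did not. Of 12 genes of the pathway, 10 were kept, 5 were raised and 0 lowered, with a median of 0.89. These were the transcription factor Gli2 (1.87), the coreceptors Boc (1.64), Gas1 (1.51) and Cdon (1.01), and the receptor Ptch1 (1.11). Gas1 had levels of 7.50 in ES cells, 7.93 after 8 h, 9.44 after 1 day, 11.37 after 2 days and 8.66 after 5 days. Further probes under the minimum of 8 changed by 1.25 for Gas1 and 0.42 for Cdon. Hhip was not called by its kept probe (0.39), but a probe of it under the minimum changed by 2.82. Gli1 had levels of 11.88, 12.33, 11.84, 12.81 and 9.89 and a change of -0.49. After a shift to the 75th percentile the change of Ptch1 was 0.84, and with normexp those of Ptch1 and Cdon were 0.86 and 0.85, so both were then under 2-fold.

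Of 9 genes of ventral identity, 6 were kept, 2 were raised and 1 was lowered. Nkx6-1, a homeobox gene of ventral progenitors, had levels of 6.72, 7.28, 8.60, 12.73 and 14.31, with a change of 1.33 that was 0.80 after a shift to the 75th percentile. Olig2, which defines motor neuron progenitors, had levels of 10.34, 8.47, 7.87, 11.47 and 7.35. It was at its lowest around 1 day within the first 4 arrays and highest after 2 days, and its change of -0.60 was under 2-fold. Its relative Olig1 fell by 2.16 on the log2 scale. Of 11 dorsal genes 4 were kept, 0 were raised and 1, Olig3, was lowered (-1.52), from 9.66 after 8 h, with 6.60 in ES cells.

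Of 11 proneural genes and their inhibitors, 4 were kept and 3 raised, and these were Id1 (2.50), Id2 (1.31) and Id3 (1.39), which block the proneural factors and are targets of BMP. Id1 had levels of 13.17 in ES cells, 8.31 after 8 h, 10.81 after 1 day, 13.39 after 2 days and 11.77 after 5 days. The array of 8 h was thus a low point for Id1, and the level of ES cells was reached again after 2 days. Id2 and Id3 were also lowest after 8 h and highest after 2 days, with 9.67 and 10.59 after 8 h and 13.34 and 14.77 after 2 days, against 12.78 and 12.30 in ES cells.

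Of 18 Notch genes, 15 were kept, 4 were raised and 2 lowered. Lfng, a glycosyltransferase that tunes the receptor, changed by 3.71, and the effectors Hes1, Hes3 and Hes5 by 1.62, 1.43 and 1.15. After a shift to the 75th percentile Hes3 (0.67) and Hes5 (0.97) were under 2-fold. Jag1, a ligand, changed by -1.29. Notch1 changed by -1.51 by its only kept probe, but another probe, well above background and under the minimum of 8, changed by 2.70, so the array gives no direction for it. Of 15 neuronal genes, 12 were kept, 0 were raised and 5 lowered by their brightest probes, with a median of -0.66. The 3 kept probes of Mapt, a microtubule-associated protein, changed by 0.21, 0.58 and 3.10. Nefm, a neurofilament chain, had levels of 7.93, 9.76, 7.003, 8.30 and 15.88, lowest after 1 day and highest after 5 days, and the others were Syt1 (-2.08, with 5.83 in ES cells and 8.02 after 8 h), Elavl3 (-1.65), Nefl (-1.17) and Elavl2 (-1.03, with another probe, under the minimum of 8, at 0.02).

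Of 12 genes of the primed epiblast, the state ES cells pass through on leaving naive pluripotency, 11 were kept, 8 were lowered and 1 was raised, with a median of -1.58. Dnmt3b, a DNA methyltransferase, had levels of 16.98 in ES cells, 16.22 after 8 h, 14.31 after 1 day, 13.27 after 2 days and 11.99 after 5 days. It fell at every step, its change was -1.91, and its further kept probes changed by -1.18 and -1.54. Pou3f1 (-1.94), Fgf5 (-2.06), Fgf8 (-2.19), Grhl2 (-1.58) and Lef1 (-1.39) fell with it, as did Otx2 and Zic2, while the junction gene Cldn6 rose (1.72). Fgf8 had levels of 7.50 in ES cells and 9.72 after 8 h. Further probes under the minimum of 8 changed by 0.49 for Fgf8 and -0.24 for Grhl2, so these calls rest on 1 probe each.

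Of 22 FGF pathway genes, 18 were kept, 10 were lowered and 1 was raised, with a median of -1.04. Among the ligands 3 of 4 kept were lowered, and among feedback inhibitors and targets 7 of 10, while of the 4 receptors Fgfr2 changed 2-fold by its brightest probe (1.13). The other kept probes of Fgfr1, whose brightest probe changed by 0.47, changed by 0.73 and 1.35. Fgf4, the ligand that ES cells make for themselves, had levels of 14.31, 12.98, 9.90, 9.90 and 9.38, with a change of -3.09, or 8.50-fold. The ETS factors that report FGF activity fell together, with Etv1 at -2.29, Etv4 at -2.08 and Etv5 at -1.52. Etv4 had levels of 14.19 in ES cells, 13.00 after 8 h, 10.92 after 1 day, 10.76 after 2 days and 11.95 after 5 days. The feedback inhibitors Spry4 (-1.72), Il17rd (-1.56), Spry1 (-1.04) and Spred2 (-1.04) fell as well, the last 2 close to the limit and at -0.99 and -0.97 after a shift to the 75th percentile.

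Pluripotency genes went down in part. Of 23 genes, 22 were kept, 7 were lowered and 1 was raised, with a median of -0.52. Pou5f1, which encodes Oct4, had levels of 12.39 in ES cells, 11.68 after 8 h, 10.01 after 1 day, 8.90 after 2 days and 8.22 after 5 days, with a change of -1.66. Nr0b1 changed by -2.95, Utf1 by -2.18, Tdgf1 by -1.77, Tcl1 by -1.67 and Dppa2 by -1.55, and Fgf4 is also on this list. The further kept probes of Tdgf1 changed by -2.87 and -3.08, and that of Dppa2 by -1.94. Dppa4 was not called by its brightest probe (-0.92), but its other kept probes changed by -1.38 and -1.25. The 7 lowered genes were all lower after 8 h than in ES cells and fell further. Klf4, also lower after 8 h than in ES cells, stayed under 2-fold, with 12.63 in ES cells, 8.66 after 8 h and 8.77 after 1 day, as did Esrrb with 14.51, 12.05 and 11.93. Nanog was the exception that rose, with levels of 9.20, 6.79, 8.85, 9.98 and 8.80 and a change of 2.06, and like Id1 it had its lowest value after 8 h.

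BMP and Nodal genes moved both ways. Of 20 genes, 13 were kept, 5 were raised and 3 lowered, with a median of -0.08. The ligand Bmp2 had levels of 5.85, 5.96, 8.75, 9.90 and 6.64 and rose by 2.80, Bmp7 rose by 1.07, and the BMP targets Id1, Id2 and Id3 rose as given. The TGF-beta family genes Lefty2 (-1.23) and Gdf3 (-1.34) and the intracellular inhibitor Smad7 (-1.39) fell. Of 36 Wnt genes, 24 were kept, 8 were raised and 2 lowered, with a median of 0.70. The secreted inhibitor Sfrp5 rose by 3.24, the ligands Wnt6 by 2.49, Wnt4 by 1.603 and Wnt5b by 1.03, and the receptors Fzd2 by 1.57 and Fzd8 by 1.43. The targets Sp5 (1.32) and Axin2 (1.002) rose too, Axin2 at the limit and at 0.57 after a shift to the 75th percentile, where Wnt4 was at 0.94, while Wnt8a (-2.26, with 7.92 in ES cells and 10.84 after 8 h), a ligand of the primitive streak, and Lef1 (-1.39) fell.

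Markers of other cell types were examined in the same way. Of 14 mesoderm genes, 4 were kept, and Meox1 (6.84) and Foxc1 (4.04) were raised and Tcf15 (-2.37) lowered. The streak genes T, Mixl1 and Mesp1 were not well above background after 1 day. Of 14 endoderm genes, 6 were kept and 3 raised, namely Sox17 (2.30, with another probe, under the minimum of 8, at -0.54), Gata4 (1.69) and Lama1 (1.02). Afp was not well above background on any array. Of 8 trophoblast genes 4 were kept and Krt8 (1.78) and Krt18 (1.004) rose, the latter at 0.96 after a shift to the 75th percentile. Of 10 neural crest genes 4 were kept and Sox10 (1.07) and Snai1 (1.01) rose, although after a shift to the 75th percentile they were at 0.43 and 0.78. Of 11 germ cell genes 8 were kept, with 2 raised (Rec8, 1.33, and Prdm1, 1.36) and 2 lowered (Tex101, -4.81, and Sycp3, -1.64). Over all kept genes 9.43% were raised and 5.30% lowered. Meox1, Foxc1, Sox17, Gata4, Sox10 and Prdm1 lay below 8 after 8 h, so they were kept only through the array of 1 day and could not be called lowered. Tex101 had levels of 6.99 in ES cells, 11.45 after 8 h and 6.64 after 1 day. It was kept only through the array of 8 h and could not be called raised. The part of such cells in the changes above was not tested.

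Of 22 genes of DNA replication and the cell cycle, 1 was raised and 0 lowered, with a median of 0.00. The exception was the cyclin Ccnd2, with levels of 9.79 in ES cells, 10.66 after 8 h, 13.09 after 1 day, 15.41 after 2 days and 12.57 after 5 days and a change of 2.43. Of 17 kept genes of glycolysis and hypoxia, 2 rose (Pfkl, 1.25, and Slc2a3, 1.18) and 3 fell (Pdk1, -2.20, Hk2, -1.23, and Ldha, -1.12). The mean over the 3 kept probes of Ldha was under 2-fold (-0.84), and that over the kept probes of Hk1, whose brightest probe changed by 0.45, was past it (1.21). Of 11 kept adhesion genes 5 rose and 1 fell, among them the tight junction gene Cldn4 with 2.80. Of 7 kept immediate early genes 2 rose, Atf3 (1.15) and Ier3 (1.18), the latter at 0.54 after a shift to the 75th percentile. Of 16 housekeeping genes 2 rose (B2m, 1.28, and Ywhaz, 1.03, whose mean over kept probes was 0.64) and 1 fell (Hprt, -1.06), with a median of 0.03 and Actb at 0.07, and these counts are close to the share of all kept genes.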

How the data were processed

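Gene expression was measured on 5 one-colour arrays, 1 per time point. The authors deposited scanner output (Agilent Feature Extraction 10.5.1 in the submitters' processing notes) with background-subtracted spot intensity that had not been scaled across arrays. A log2 table of these arrays was also deposited (column medians from -3.71 to -2.62), used as an alternative. Its values differed from the log2 intensity by a constant per array, within 0.1 for 100% of probes, so genes were not centred.

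Control and outlier spots were left out, log2 intensities were averaged per probe, and the 5 arrays were quantile-normalized (limma 3.58.1, R 4.3.3), then processed in Python 3.11.15 with numpy 2.4.6, pandas 2.3.3 and matplotlib 3.10.9. Of 55681 mouse probes, 26290 matched 19889 RefSeq symbols by accession. The brightest kept probe stood for a gene. A further 6391 kept probes without a symbol (439 raised, 688 lowered) were not named. Genes named were Hoxd4, Pax6, the 15 largest rises and falls among characterised genes, members of 27 lists, and members of 6 further lists and other genes that were chosen after their values had been seen. Some members are not reported here. Members and lists were chosen with earlier results of these data known. The steps were run on simulated arrays, made from the ES array with spot noise and with known changes set in brighter genes only. The simulation lacked the raised dim signal of the array of 8 h, so it checks the steps and not the calls made here. With 1 array per time point, precision is limited and no test was made.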

Additional observations from a re-analysis of the deposited data

Results flagged for a closer look

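The array of 8 h showed signal in probes outside the main measurement. Of the 96 probes for ERCC spike-in controls, 66.7% were well above background after 8 h, against 8.33% in ES cells, 4.17% after 1 day, 9.38% after 2 days and 7.29% after 5 days. Whether spike-in RNA was added is not given in the sources used here.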

How the results depend on the processing

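The counts of 1093 raised and 614 lowered genes moved by over 1.5 times under these settings: no normalization (175 raised, 3044 lowered), no minimum of log2 signal (2334 raised), a minimum of 10 (462 raised, 341 lowered), thresholds of 1.5-fold (2409 and 1400) and 4-fold (221 and 201), and, added after seeing the data, no normalization with changes centred on their median (701 raised) and a minimum of 8 on the ES array as well (641 and 396). Normexp (829 and 529), quantile normalization of the 2 arrays alone (1030 and 588), the deposited log2 table (816 and 658), other detection flags and the mean of probes moved them less. All 195 named genes that changed 2-fold kept their direction under every alternative that gave them a value, apart from Axin2 (-0.16), H2-DMb1 (-0.14), Hes3 (-0.0608), Ier3 (-0.20), Psmb8 (-0.0109) and Sox10 (-0.31), which reversed without normalization, where the median of all kept genes was -0.67. After a shift to the 75th percentile 176 of the 195 were still past 2-fold and with normexp 175. No paired analysis was possible because only 1 array existed per time point, which also meant that no array could be left out. Dim signal limits the calls: the share raised was 20.0% at 8 to 10 and 2.52% at 14 or above.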

Other observations

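In several gene families outside the lists above, most of the genes called went in the same direction, while other kept members of some families stayed under 2-fold. These families were picked after their values had been seen, so their counts are descriptions. Of 44 genes of antigen presentation, 26 were kept, 16 were raised and 1, Ciita (-1.54, with 6.3964 in ES cells and 8.63 after 8 h), was lowered, with a median change of 1.44. Cd74, the invariant chain of class II molecules, had log2 levels of 7.42 in ES cells, 7.02 after 8 h, 10.78 after 1 day, 10.69 after 2 days and 6.39 after 5 days. The peptide transporter genes Tap1 (2.89) and Tap2 (1.73), Tapbp (2.10), which loads peptides, and B2m (1.28), the class I light chain, rose with H2-K1 (1.53) and H2-D1 (1.81). The class I genes are near-identical in places, so their probes may share signal and are not independent. Tgfb1 (2.72) and the lymphotoxin chain Ltb (3.01) were also raised.

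Of 42 collagen genes, 15 were kept, 13 were raised and 0 lowered, with a median of 1.76. Of the 27 not kept, 13 were not well above background after 1 day and could not be called lowered, and several raised members reached 8 on the array of 1 day only. Col2a1, a collagen of cartilage and notochord, had levels of 10.81 in ES cells, 11.88 after 8 h, 13.84 after 1 day, 13.85 after 2 days and 12.69 after 5 days. Col4a1 (1.35) and Col4a2 (1.76), chains of basement membrane, had levels that rose on from 11.28 and 11.11 after 1 day to 12.28 and 12.53 after 2 days. Of 9 globin genes 5 were kept, and all 5 were raised, against 9.43% of all kept genes. The other 4 were not well above background after 1 day and could not be called lowered. Hba-x (6.92) and Hba-a1 (7.13) lay below 8 after 8 h, so they were kept only through the array of 1 day and could not be called lowered either. The embryonic Hba-x had levels of 2.68, 6.92, 10.75, 10.87 and 7.30. Hbb-y changed by 3.05 and its other kept probe by 3.53, while Hba-a1 and Hba-a2 are near-identical copies. The 3 Zscan4 genes, which mark a rare ES cell state and are close copies of each other, rose by 2.78 to 3.64, with Zscan4f at 5.09 in ES cells, 7.10 after 8 h, 9.87 after 1 day and 12.46 after 2 days. All 3 lay below 8 after 8 h, so they too were kept only through the array of 1 day and could not be called lowered.

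Of 18 kept genes of the amino acid stress response, 7 were lowered and 0 raised, with a median of -0.78. They included Trib3 (-1.71), Chac1 (-1.45), Nupr1 (-1.47) and the arginine transporter Slc7a3 (-1.77). Cth, an enzyme of cysteine synthesis, changed by -1.87 and its other kept probe by -1.98. Genes abundant in ES cells that fell alongside included L1td1 (-2.38), Trh (-2.47), Rex2 (-2.03) and Tdh (-1.36), and Insm1, a neuroendocrine zinc finger factor, fell from 12.29 after 8 h to 10.12 after 1 day. Zfp703, a zinc finger repressor, had levels of 9.10 in ES cells, 14.53 after 8 h and 16.22 after 1 day.

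Of 1319 olfactory and vomeronasal receptor genes, 22 were kept, 7 were lowered and 1 raised. This is 31.8% lowered and 4.55% raised, against 5.30% and 9.43% of all kept genes. Probes of such receptors were well above background for 67.8% after 8 h and 8.95% after 1 day. The part of the array of 8 h in these falls was not tested. Of these 1319 genes, 1191 were not well above background after 1 day.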
